A study of Mus musculus with 48 samples.

Results

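Chromatin accessibility was compared between Ttad and Tterm cells carrying the control guide in aged mice. The comparison used 4 of the 48 ATAC-seq libraries of the series, the 2 titled A_OTC_Ttad and the 2 titled A_OTC_Tterm, over all 53868 peaks of the deposited table. All groups were OT-1 CD8 T cells, whose transgenic T cell receptor recognises an ovalbumin peptide. They expressed Cas9, came from CD45.1 donors, received a guide RNA by a lentivirus with an ametrine reporter, and were sorted from B16-OVA melanomas, a mouse line expressing ovalbumin, 15 days after tumour inoculation. The sort used 2 surface proteins, Slamf6 and Tim-3 (encoded by Havcr2). Ttad cells, which the labels describe as age-associated dysfunctional, were negative for both proteins. Tterm cells, described as terminally exhausted, were negative for Slamf6 and positive for Tim-3. OTC is used here only as the name the labels give the control.

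Other groups are used for side-by-side values. They are the aged OTC Tprog (positive for Slamf6 alone) and Ttran (positive for both proteins) libraries, 2 each, the aged Ttad and Tterm libraries of the Zfp219 and Dusp5 guides, 2 each, and the young OTC Tprog and Tterm libraries, 2 and 3. In the titles, A was taken as aged and Y as young, and host ages in months are not given in the sources used here. Each library came from sorted cells of several mice pooled, with 5000 to 50000 cells per guide and state. Which mice entered which pool is not given in the sources used here, so the p-values measure only the spread between these libraries, which may be technical.

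ATAC-seq counts fragments released by the Tn5 transposase, so a peak with more reads is a stretch of chromatin that was open in more cells or open more often. T cells that meet antigen for a long time in a tumour lose function stepwise. Progenitor cells keep the transcription factor TCF1 (Tcf7) and Slamf6, and terminally exhausted cells lose them and gain inhibitory surface proteins such as Tim-3 and the ectonucleotidase CD39 (Entpd1). In sorted bulk cells, a site open in fewer cells and a site less open per cell cannot be told apart.

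The promoters of 6 genes with a called peak show where the comparison reads the genome. They are Havcr2 and Entpd1, the markers of terminal cells, Tcf7, Ccr6 and Cd101, whose promoter peaks were more open in Ttad, and Gzmf, the called promoter peak with the largest fall in Ttad, the last 4 chosen after their values were seen. Each line gives the 250 bases before the RefSeq start on the gene's own strand, from GRCm38.p6. Capitals mark letters of 6 factor families on either strand: AP-1 (TGANTCA), TCF/LEF (CTTTGAT or CTTTGAA), RUNX (TGNGGTT), ETS (CAGGAAG), NFAT (TGGAAAA) and T-box (GGTGTGA).
Havcr2 (plus strand, chr11:46454681-46454930): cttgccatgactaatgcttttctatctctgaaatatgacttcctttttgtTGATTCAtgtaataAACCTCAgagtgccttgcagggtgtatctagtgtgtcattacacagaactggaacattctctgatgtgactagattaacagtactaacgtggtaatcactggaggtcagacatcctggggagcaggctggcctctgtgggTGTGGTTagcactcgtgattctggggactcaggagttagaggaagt
Entpd1 (plus strand, chr19:40659520-40659769): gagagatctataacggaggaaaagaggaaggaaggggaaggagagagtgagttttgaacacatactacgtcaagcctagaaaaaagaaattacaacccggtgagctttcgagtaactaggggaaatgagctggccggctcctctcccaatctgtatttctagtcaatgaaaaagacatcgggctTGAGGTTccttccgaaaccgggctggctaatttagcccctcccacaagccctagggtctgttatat
Tcf7 (minus strand, chr11:52282596-52282845): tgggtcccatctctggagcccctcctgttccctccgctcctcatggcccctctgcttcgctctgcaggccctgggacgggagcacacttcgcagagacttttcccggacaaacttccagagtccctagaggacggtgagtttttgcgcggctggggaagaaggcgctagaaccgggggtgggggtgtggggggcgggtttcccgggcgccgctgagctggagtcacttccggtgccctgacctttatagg
Ccr6 (plus strand, chr17:8242276-8242525): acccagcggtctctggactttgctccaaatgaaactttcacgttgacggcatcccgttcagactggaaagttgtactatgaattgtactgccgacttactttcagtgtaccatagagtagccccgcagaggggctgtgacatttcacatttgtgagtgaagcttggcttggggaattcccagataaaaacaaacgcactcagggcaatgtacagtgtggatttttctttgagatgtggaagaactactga
Cd101 (minus strand, chr3:101029554-101029803): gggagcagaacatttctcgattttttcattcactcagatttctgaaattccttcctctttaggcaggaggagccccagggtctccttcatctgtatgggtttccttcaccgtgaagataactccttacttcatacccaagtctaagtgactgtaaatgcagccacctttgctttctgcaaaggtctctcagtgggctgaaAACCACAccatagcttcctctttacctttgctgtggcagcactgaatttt
Gzmf (minus strand, chr14:56211408-56211657): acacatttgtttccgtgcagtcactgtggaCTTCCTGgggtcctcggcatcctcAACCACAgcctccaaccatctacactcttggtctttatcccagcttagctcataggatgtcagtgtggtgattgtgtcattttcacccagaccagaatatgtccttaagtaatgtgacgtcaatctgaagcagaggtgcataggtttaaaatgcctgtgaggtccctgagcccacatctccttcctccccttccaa

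The Havcr2 window held 1 AP-1 and 2 RUNX matches, the Entpd1 and Cd101 windows 1 RUNX match each, and the Gzmf window 1 RUNX and 1 ETS match. The Tcf7 and Ccr6 windows held none of these letters. The RUNX letters allow any base in place of N, so they are a loose pattern. The Entpd1 match reads TGAGGTT and 1 Havcr2 match AACCTCA, the same letters on the other strand, while the other RUNX matches read TGTGGTT or AACCACA. Whether RUNX factors bind any of these was not tested. The Entpd1 peak begins inside its printed window, at base 40659633, and covers only the downstream part of it. Over promoter windows of 300 bases (250 before to 50 after the start), AP-1 letters stood in 6.99% of all 21238 windows, 4.53% of the 11533 under a peak, 2.46% of the 203 under a peak higher in Ttad and 8.62% of the 174 under a peak lower in Ttad. RUNX letters stood in 13.9%, 12.4%, 16.3% and 19% of the same windows. TCF/LEF letters stood in 7.57%, 5.38%, 8.37% and 6.90%, ETS letters in 12.5%, 12.1%, 16.3% and 13.8%, NFAT letters in 5.97%, 4.40%, 3.94% and 5.17%, and T-box letters in 3.68%, 3.29%, 2.46% and 5.17%. NF-kB letters (GGGANTTTC), 1 of the other 11 families searched, were chosen after their values were seen. They stood in 1.08%, 0.954%, 0.493% and 4.02%, the last shares being 1 of the 203 and 7 of the 174 windows. These are shares of letters with no test, and most called peaks lay outside promoters.

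Across the genome, 3921 of 53868 peaks differed between Ttad and Tterm (7.28% of those tested; limma on log2(value + 1), Benjamini-Hochberg adjusted p under 0.05). Of these, 1627 were more open in Ttad (3.02%) and 2294 were less open (4.26%). At least a 2-fold difference on that scale was seen for 696 of the higher and 835 of the lower peaks. The 2 Ttad and 2 Tterm values did not overlap in 1621 of the higher and 2267 of the lower peaks, and in 47.9% of all peaks. Promoter windows were touched by 17.2% of all peaks, 10.6% of the higher peaks and 6.23% of the lower ones, counted with windows for 79.9% of protein-coding genes. Called peaks were assigned to 2513 of the 15168 genes that had any peak, either as the gene body they overlapped or as the nearest one within 100 kb.

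The 2 Ttad libraries held 8059981 and 10929698 reads in peaks and the 2 Tterm libraries 12447296 and 14780826, within the aged range of 5638413 to 16159054. Thinning the 4 libraries to the smallest total gave 4398 calls. Leaving out 1 library lowered the number of calls to 1908 without Tterm 1, 2032 without Tterm 2, 2196 without Ttad 1 and 2813 without Ttad 2. In all 4 of these fits 279 of the higher and 482 of the lower peaks stayed called, 19.4% of the 3921. Each peak given below as changed with its value in every library was among these 761 unless a lost call is stated; peaks given only as counts need not be. Of the 110 peaks on unplaced scaffolds, 32 were higher in Ttad and 0 lower. Scaffold peaks took 1.31% and 1.33% of the normalized reads in Ttad against 0.878% and 0.903% in Tterm; without scaffold and Y peaks 3877 peaks were called.

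**Figure D1:**
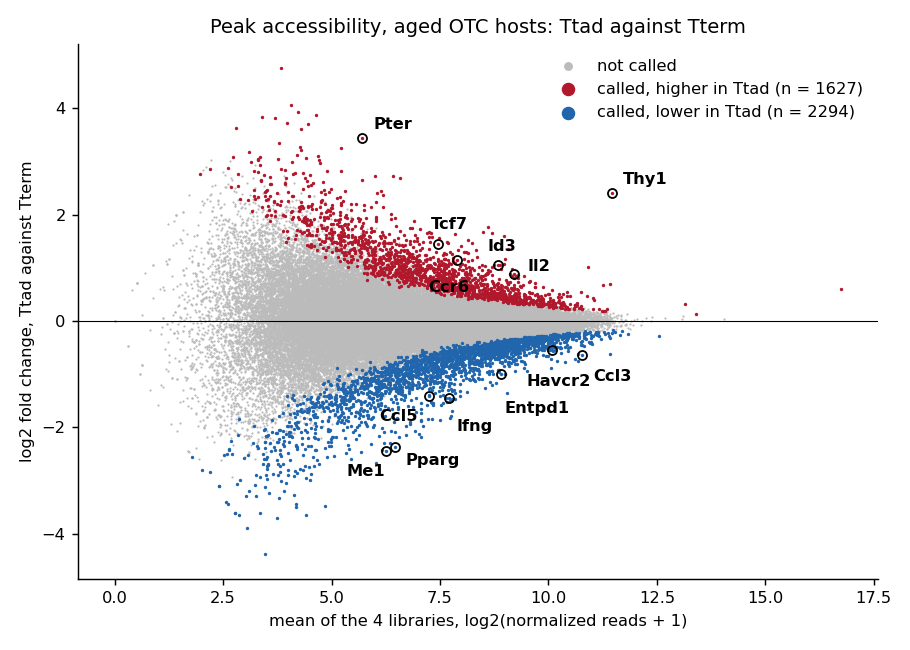
Log2 fold change of Ttad against Tterm (y axis) against the log2 mean of the 4 libraries (x axis), 1 point per peak. The 1627 peaks called higher in Ttad are red, the 2294 called lower are blue, the rest are grey, and circles mark peaks named in the text; Thy1 and Pter lie high among the red points, Me1 and Pparg low among the blue ones.

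Peaks of the terminal markers were less open in Ttad. Tim-3 was itself a sort marker, so Havcr2 describes the gates. The peak over the Havcr2 promoter (chromosome 11, 46452770 to 46455391) held 825 and 934 normalized reads in the Ttad libraries against 1351 and 1212 in the Tterm libraries. The groups did not overlap, and the peak fell by 0.54 on the log2 scale (SE 0.08, limma adjusted p = 1.34e-06). Of the 5 peaks assigned to Havcr2, 4 were lower in Ttad and 0 higher. The aged Tprog libraries, also negative for Tim-3, held 585 and 523 in the promoter peak, below both Ttad libraries (log2 difference of Ttad from Tprog 0.66, limma adjusted p = 1.16e-08; 6.55% of all peaks were called in that comparison).

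Entpd1 encodes CD39, which removes extracellular ATP, and was not a sort marker. Its promoter peak (chromosome 19, 40659633 to 40662398) held 300 and 341 normalized reads in Ttad against 682 and 594 in Tterm. The peak fell by 0.99 on the log2 scale (SE 0.12, limma adjusted p = 7.91e-10). Tprog held 246 and 223 and Ttran 459 and 526, so both Ttad libraries lay between those states. An intragenic peak (40691626 to 40692556) held 228 and 165 against 416 and 408 and fell by 1.08 (SE 0.16, limma adjusted p = 3.5e-07). In all, 4 of the 12 Entpd1 peaks were lower and 0 higher.

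Slamf6 peaks went the other way, although both populations were sorted as negative for the protein. A peak 16565 bp from the gene body (chromosome 1, 171965523 to 171966661) held 114 and 137 normalized reads in Ttad and 53.4 and 51.3 in Tterm, with no overlap. It rose by 1.24 (SE 0.25, limma adjusted p = 0.000351). Tprog libraries, positive for Slamf6, held 322 and 286 there. The strongest Slamf6 peak held 478 and 506 against 318 and 367, a log2 difference of 0.53 (limma adjusted p = 0.0169), and that call was lost in 3 of the 4 fits that left out 1 library (adjusted p up to 0.226, without Tterm 1). Called peaks at Slamf6 were 2 of 6, both higher.

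**Figure D2:**
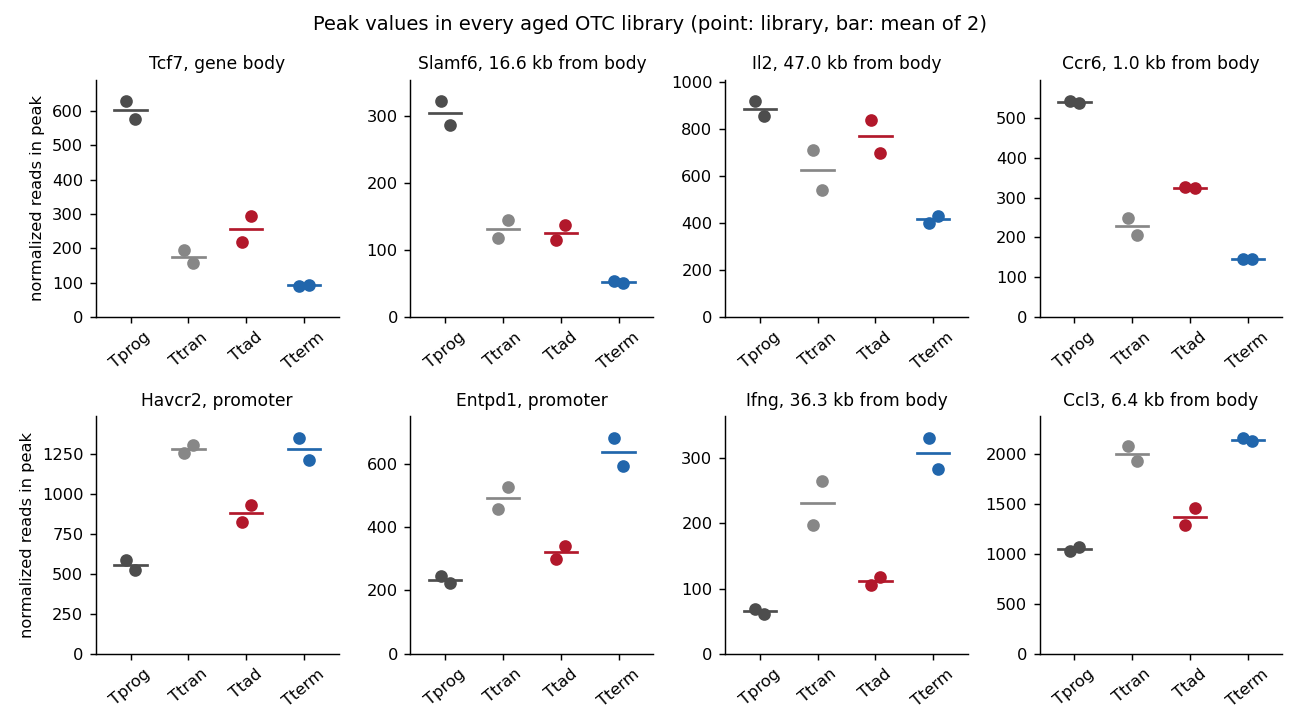
Normalized reads (y axis, from 0) of 8 peaks in every aged OTC library, by sorted state; points are libraries and bars the mean of 2. In each of these peaks, chosen after their values were seen, both Ttad libraries lie between the Tprog and the Tterm libraries, for example at 218 and 293 in the Tcf7 gene body, between 628 and 578 in Tprog and 89.3 and 94.4 in Tterm.

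Of 225 peaks assigned to a list of 20 genes of progenitor and memory T cells, 40 were higher in Ttad (17.8%, against 3.02% of all peaks) and 5 lower (2.22%, against 4.26%). Inside gene bodies, 21 of 100 were higher and 0 lower, against 933 and 1374 of 34590 over all peaks. The median log2 difference of the list was 0.22, and 0.0014 over all peaks. The higher peaks belonged to 11 of the 20 genes, and 14 of the 40 stayed called in every fit that left out 1 library, as did 4 of the 5 lower ones.

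Tcf7, which encodes TCF1, the factor that maintains progenitor cells, had 5 of its 12 peaks higher and 0 lower. The gene-body peak at chromosome 11, 52273512 to 52275959, held 218 and 293 normalized reads in Ttad and 89.3 and 94.4 in Tterm. It rose by 1.45 (SE 0.20, limma adjusted p = 5.3e-08). The Ttad values were above both Tterm values and below both Tprog values, 628 and 578. The promoter peak held 342 and 230 against 144 and 119 and rose by 1.09 (SE 0.19, limma adjusted p = 1.8e-05). Its strongest peak, 15935 bp from the body, held 1035 and 957 against 897 and 850 and was not called (log2 difference 0.19, limma adjusted p = 0.198), so the calls did not extend to every site of the locus.

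Bach2, a repressor that restrains effector differentiation, had 10 of 35 peaks higher and 0 lower. The peak at chromosome 4, 32267291 to 32268460, held 527 and 367 in Ttad against 146 and 170 in Tterm and rose by 1.47 (SE 0.22, limma adjusted p = 7.09e-07). Both Ttad libraries were also above the Tprog values of 354 and 320, a difference that was not called (0.38, limma adjusted p = 0.344). Id3, an inhibitor of E-protein factors kept by memory precursors, had 4 of 7 peaks higher. The Id3 peak 36465 bp from the body held 672 and 565 against 303 and 291, with no overlap (1.05, SE 0.18, limma adjusted p = 1.06e-05).

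Among the homing receptors of the list, Ccr7, which guides T cells into lymph nodes, had 5 of 11 peaks higher; the peak over its body held 993 and 912 against 633 and 500 (0.76, limma adjusted p = 1.63e-05). S1pr1, the receptor for exit from tissue, had 1 of 15 peaks higher and 1 lower, the higher one with 287 and 225 against 134 and 123 (0.98, limma adjusted p = 9.35e-05). Ccr6, a receptor for the chemokine CCL20, had 3 of 6 peaks higher. The Ccr6 peak 961 bp from the body held 327 and 324 in Ttad and 146 and 147 in Tterm (1.15, SE 0.24, limma adjusted p = 0.000415), while Tprog held 542 and 538. The Ccr6 promoter peak held 166 and 143 against 43.6 and 64.2 (1.52, SE 0.33, limma adjusted p = 0.000706), a call that was lost without Tterm 1 (adjusted p = 0.058).

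Lef1 and Myb, also progenitor factors, did not follow Tcf7. The only called Lef1 peak of 16 held 500 and 525 in Ttad against 893 and 857 in Tterm and fell by 0.77 (SE 0.12, limma adjusted p = 1.65e-06). All 3 called Myb peaks of 14 were lower. The Myb peak 8855 bp from the body held 196 and 255 against 452 and 503 and fell by 1.09 (limma adjusted p = 3.15e-05). In both cases Tprog libraries were lower still, at 357 and 379 for the Lef1 peak and 126 and 132 for the Myb peak. Other list members with higher peaks were Bcl6 (3 of 5), Xcl1 (3 of 18), Cxcr5 (2 of 9) and Satb1 (2 of 9).

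Of 141 peaks of 18 effector and cytotoxic genes, 22 were lower in Ttad (15.6%, against 4.26% of all peaks). In the other direction 4 were higher (2.84%, against 3.02%), and the median was -0.23. Inside gene bodies, 4 of 51 peaks were lower and 0 higher, against 1374 and 933 of 34590 over all peaks. Most of the 22 lower calls were thus peaks assigned to the nearest gene by distance. The lower calls belonged to 7 of the 18 genes, and 9 of the 22 were Ifng peaks. Of the lower calls 5 and of the higher calls 2 stayed called in every fit that left out 1 library. The interferon gamma gene, Ifng, had 9 of 27 peaks lower and 0 higher. The Ifng peak 36271 bp from the body (chromosome 10, 118482165 to 118482957) held 106 and 117 normalized reads in Ttad and 331 and 284 in Tterm. It fell by 1.46 (SE 0.23, limma adjusted p = 4.25e-06), and the Ttad values were closer to those of Tprog, 69.1 and 61.2, than to those of Tterm. The strongest Ifng peak held 1021 and 1242 against 1707 and 1617 and fell by 0.56 (limma adjusted p = 1.59e-07).

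The granzyme B gene, Gzmb, had 3 of 9 peaks lower. The Gzmb peak 13365 bp from the body held 106 and 94.9 against 218 and 236 (fell by 1.17, SE 0.21, limma adjusted p = 4.35e-05). Klrg1, a receptor of differentiated effector cells, had 4 of 9 lower; 1 over the gene held 181 and 259 against 367 and 384 (fell by 0.79, limma adjusted p = 3.52e-05). The Gzmf promoter, a granzyme outside the list, held 31.9 and 54.2 against 181 and 151 (fell by 1.97, SE 0.51, limma adjusted p = 0.0075), and its call was lost without Ttad 1 (adjusted p = 0.154) and without Tterm 1 (adjusted p = 0.0959). The exceptions in the list were Il2 and Cx3cr1. Il2, the growth factor made by less differentiated T cells, had 3 of 6 peaks higher. Its peak at 47033 bp from the body held 842 and 700 in Ttad, 402 and 432 in Tterm and 919 and 858 in Tprog (0.88, SE 0.13, limma adjusted p = 5.93e-07). The Cx3cr1 peak held 461 and 474 against 253 and 289 (0.79, limma adjusted p = 0.000353).

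Of 90 peaks of chemokines and their receptors, 14 were lower (15.6%) and 4 higher (4.44%), with a median of -0.09; 8 of the lower calls and 1 of the higher stayed called in every fit that left out 1 library. Over all peaks, 4.26% were lower and 3.02% higher. Inside gene bodies, 6 of 23 peaks of this list were lower and 2 higher. The 14 lower peaks belonged to the inflammatory ligands Ccl3 (3 of 4 peaks), Ccl4 (3 of 4) and Ccl5 (5 of 7), neighbours on chromosome 11, and to the receptor Ccr2 (3 of 5). The Ccl3 peak 6367 bp from the body held 1288 and 1459 in Ttad against 2165 and 2133 in Tterm. It fell by 0.65 (SE 0.07, limma adjusted p = 1.67e-11), and Tprog held 1033 and 1071. The Ccl4 peak over the gene held 456 and 489 against 713 and 744 (fell by 0.62, limma adjusted p = 6.06e-05). At the Ccl5 peak 10321 bp from the body, Ttad held 90.5 and 73.9 and Tterm 254 and 189 (fell by 1.41, SE 0.20, limma adjusted p = 2.34e-07). The Ttad range there held both Tprog values, 84.9 and 79.0. The Ccr8 promoter peak, of a receptor found on tissue and regulatory T cells, was higher, with 2096 and 1988 against 1422 and 1394 (0.54, limma adjusted p = 5.12e-06).

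The 93 peaks of inhibitory receptors and terminal surface proteins had 11 lower (11.8%) and 4 higher (4.30%) calls and a median of -0.04. Over all peaks, 4.26% were lower and 3.02% higher. Of the 11 lower calls, 4 were Havcr2 peaks, which describe the Tim-3 gate, and 4 were Entpd1 peaks. The remaining lower calls were 1 peak each of Ctla4, Tigit and Cd244a, and Tigit fell by 0.35 (1214 and 1180 against 1545 and 1514, limma adjusted p = 0.00136). Pdcd1, which encodes PD-1, was not called: its strongest peak held 3003 and 2951 in Ttad against 2929 and 3063 in Tterm. These groups overlapped, and the log2 difference was -0.01 (SE 0.06, limma adjusted p = 0.958). Btla, a receptor shared with less differentiated cells, had 2 of 7 peaks higher. The Btla peak in the gene held 116 and 139 against 33.8 and 56.8, and 324 and 280 in Tprog (1.51, SE 0.24, limma adjusted p = 3.83e-06). The Cd101 promoter held 62.0 and 78.8 against 16.3 and 33.9 (1.53, SE 0.33, limma adjusted p = 0.000829), a call that was lost without Tterm 1 (adjusted p = 0.145).

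Of 232 peaks of 16 genes of transcription factors linked to exhaustion, 13 were lower (5.6%) and 5 higher (2.16%), near the 4.26% and 3.02% of all peaks, with a median of -0.0043. With only peaks inside gene bodies, 3 of 117 were lower and 3 higher. Tox, the factor that fixes the exhausted state, held 605 and 612 in its strongest peak in Ttad and 573 and 517 in Tterm, with no overlap but no call (0.16, SE 0.11, limma adjusted p = 0.448). The 5 higher calls were 1 peak each of Tox, Nr4a1, Nr4a3, Eomes and Ikzf2, and 0 of them stayed called in every fit that left out 1 library; 1 of 27 Tox peaks was higher (0.64, limma adjusted p = 0.032), called in 1 of those 4 fits. The lower calls included 4 of 22 Prdm1 peaks and 4 of 9 Id2 peaks, genes of 2 factors of effector differentiation. A Prdm1 peak 16513 bp from the body held 381 and 457 against 656 and 689 (fell by 0.69, limma adjusted p = 0.000215), and an Id2 peak 68271 bp from the body held 607 and 573 against 814 and 822 (fell by 0.47, limma adjusted p = 0.00113). Nr4a3, induced by receptor signalling, had 3 lower and 1 higher of 15 peaks; the peak 77033 bp from the body held 46.9 and 44.4 against 136 and 133 (fell by 1.54, SE 0.30, limma adjusted p = 0.000131).

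Of 69 peaks of cell-cycle inhibitors and senescence genes, 9 were lower (13%) and 1 higher (1.45%), with a median of -0.03; the lower calls belonged to 5 genes, and 2 of them stayed called in every fit that left out 1 library. Inside gene bodies, 2 of 25 peaks of this list were lower and 1 higher. Cdkn1a, the p21 inhibitor, was the clearest, with 231 and 313 in Ttad, 577 and 640 in Tterm and 334 and 255 in Tprog at a peak 8419 bp from the body (fell by 1.17, SE 0.13, limma adjusted p = 1.24e-10). Over all peaks, 4.26% were lower and 3.02% higher, the shares to set beside each list of this paragraph. Cytokine receptors and their signalling genes were near them, with 14 lower (6.14%) and 5 higher (2.19%) of 228 peaks and a median of -0.05. Il2rb, a subunit of the IL-2 and IL-15 receptors, held 1509 and 1488 against 2113 and 2061 in its strongest peak (fell by 0.48, limma adjusted p = 1.84e-07). Tgfbr2, the TGF-beta receptor subunit, had 4 higher and 2 lower of 21 peaks, with 320 and 333 against 171 and 159 in 1 of the higher ones (0.98, limma adjusted p = 0.000457). Of 124 residency and integrin peaks, 7 were higher (5.65%) and 8 lower (6.45%), and 0 of these 15 stayed called in every fit that left out 1 library. The 12 higher calls (10.5%) among 114 AP-1 and bZIP peaks were 10 Bach2 peaks and 1 each of Fos and Bach1, with 3 lower (2.63%). The 2 genes perturbed elsewhere in the series, Zfp219 and Dusp5, had 0 higher and 2 lower (10%) of 20 peaks, both lower ones assigned to Dusp5.

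**Figure D3:**
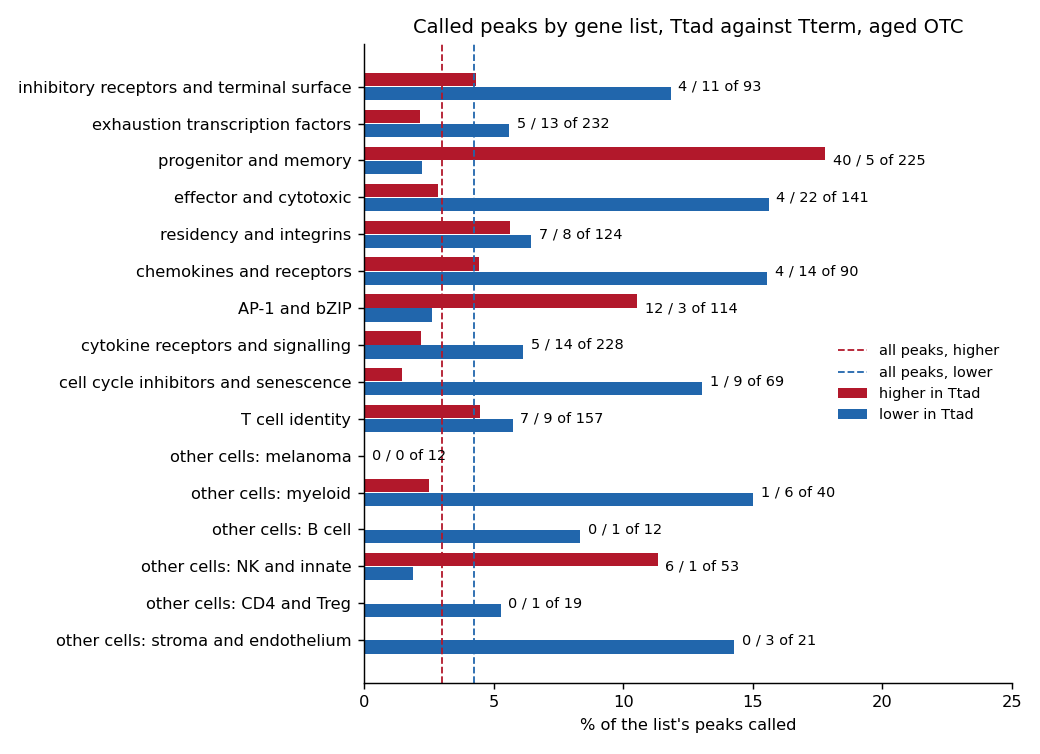
Percentage of a gene list's peaks called higher (red bars) or lower (blue bars) in Ttad. The lists of sort markers and of perturbed genes are not drawn. Havcr2 peaks remain in the inhibitory receptor list and Slamf6 peaks in the progenitor list. Peaks given to a gene by distance are counted. Dashed lines give the 3.02% and 4.26% of all peaks. The progenitor and memory list has the longest red bar, at 17.8%, and the effector and chemokine lists have blue bars of 15.6%.

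Markers of other cells were checked, since sorted cells may carry some. T cell identity genes had 7 higher (4.46%) and 9 lower (5.73%) of 157 peaks. Of the myeloid markers, Adgre1, Csf1r and Lyz2 had no assigned peak; 6 of 40 peaks were lower in Ttad (15%, against 4.26% of all peaks; 3 of Cebpb, 3 of Fcgr3) and 1 of Itgam higher (2.5%), and the summed level was 8111 to 8228 normalized reads in Ttad against 9077 to 9371 in Tterm. The melanoma markers had 0 of 12 peaks called, none assigned to Dct, Tyr or Tyrp1, and summed to 1434 to 1708 against 1461 to 1470. The B cell markers had 1 of 12 peaks lower (8.33%, Blk), none assigned to Cd79a, Cd79b or Ms4a1, and summed to 1411 to 1517 against 1233 to 1307. The CD4 and Treg markers had 1 of 19 lower (5.26%, Ikzf4), none assigned to Foxp3, and summed to 3553 to 3819 against 3910 to 4020. Stromal and endothelial markers had 3 of 21 lower (14.3%, all Pecam1), none assigned to Col1a2 or Col3a1, and summed to 3802 to 3925 against 4372 to 4501. The NK and innate markers had 6 of 53 higher (11.3%, against 3.02% of all peaks; 4 of Rora, 2 of Klra8) and 1 lower (1.89%), and summed to 18249 to 18500 against 16189 to 16222. The myeloid and stromal shares of lower peaks were thus near the 15.6% of the effector list, and the part of these cells in the results above was not tested.

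The 12 largest rises, with at least 50 normalized reads in the higher group and no overlap, ran from 2.25 to 3.45 on the log2 scale. Only Pter, Nebl, Ptbp3 and Thy1 among them stayed called in all 4 fits that left out 1 library. The Pter peak, in a gene for a phosphotriesterase-related enzyme, held 101 and 88.7 in Ttad against 6.54 and 9.16 in Tterm (3.45, SE 0.58, limma adjusted p = 1.2e-05), and 180 and 203 in Tprog. The Thy1 peak (chromosome 9, 44046603 to 44047436) held 4884 and 4611 in Ttad and 959 and 829 in Tterm (2.41, SE 0.14, limma adjusted p = 1.3e-25). Unlike the Pter peak it was lowest in Tprog, at 135 and 122, and 3 other Thy1 peaks were lower in Ttad. Over all groups of the series its means ran from 123 to 4748, and what the reads at this site come from was not tested, so its difference is not read here as one of the Thy1 gene. The other 8 rises lost their call in at least 1 of those fits, with a highest adjusted p of 0.477 at the Rad51b peak without Tterm 1.

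The 12 largest falls ran from -2.66 to -2.31, and 9 of them stayed called in all 4 fits; the Gzmn peak lost its call furthest, without Ttad 1 (limma adjusted p = 0.416). The B4galnt2 peak, in a glycosyltransferase gene, held 11.7 and 23.4 in Ttad against 112 and 109 in Tterm (fell by 2.66, SE 0.39, limma adjusted p = 3.25e-07). The Me1 peak, in the gene of cytosolic malic enzyme, held 21.8 and 23.4 against 137 and 118 (fell by 2.44, SE 0.27, limma adjusted p = 9.05e-11). The Pparg peak, in the gene of a lipid-sensing nuclear receptor, held 23.5 and 32.0 against 141 and 152 (fell by 2.37, SE 0.29, limma adjusted p = 2.85e-09). In these 3 peaks the Tprog libraries were also below both Tterm libraries, at 10.2 and 12.4, at 20.4 and 20.4, and at 47.6 and 28.4.

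Called peaks often shared a gene and a direction. Of the 236 genes with at least 3 called peaks, 71 had only higher, 119 only lower and 46 mixed calls. Most higher peaks were found at Foxp1, a factor of T cell quiescence, with 12 of 46 peaks higher and 1 lower, then at Bach2 (10 of 35), Fam53b (8 of 15), Lrig1 (7 of 11), Dapl1 (7 of 14) and Asap1 (7 of 30). Genes with many lower peaks included Cdk6, a cell-cycle kinase, with 11 of 23 lower and 0 higher, Ifng (9 of 27) and Snx29 (8 of 21). The Foxp1 peak with the largest fold held 70.4 and 67.8 against 12 and 20.2 (2.08, limma adjusted p = 0.00032), and that of Cdk6 held 16.8 and 22.2 against 74.1 and 81.6 (fell by 1.96, limma adjusted p = 5.86e-05).

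**Figure D4:**
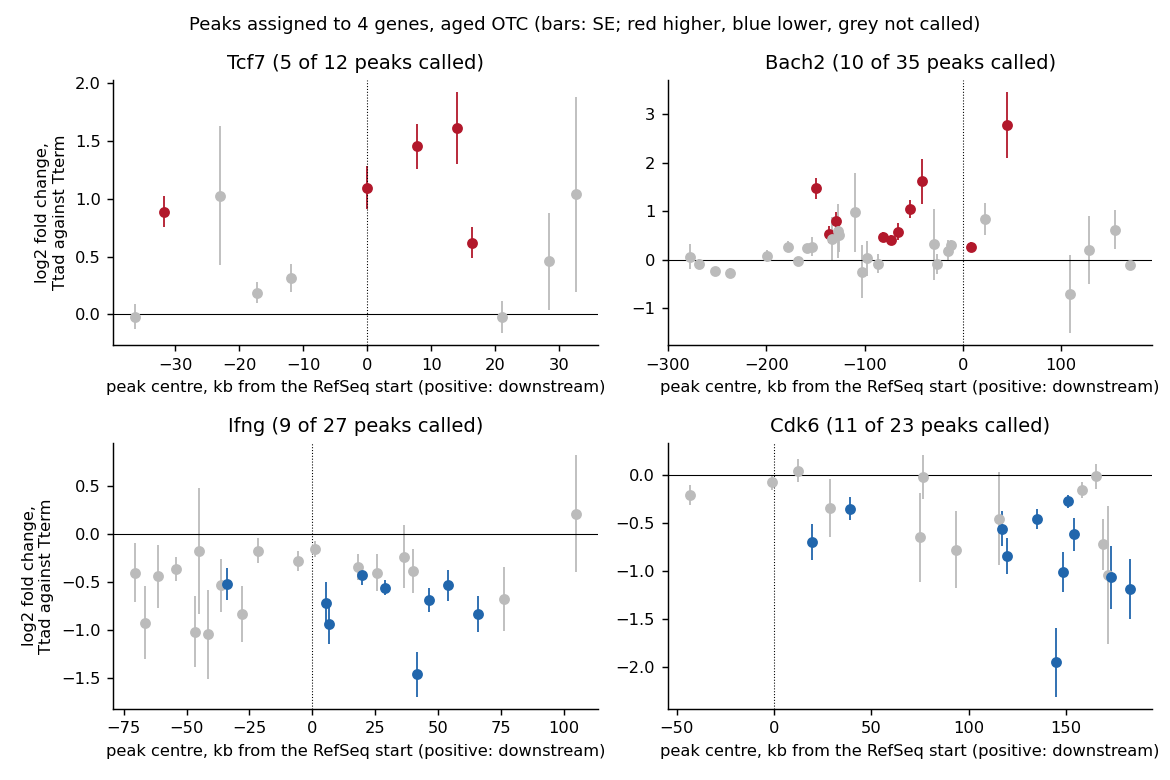
Log2 fold change of Ttad against Tterm with its SE (y axis) for every peak assigned to Tcf7, Bach2, Ifng and Cdk6, by distance of the peak centre from the RefSeq start in kb (x axis); red is called higher, blue called lower, grey not called. The called peaks are 5 of 12, 10 of 35, 9 of 27 and 11 of 23, and all called peaks of a gene lie on the same side of 0.

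The same 3921 peaks were then read in groups whose means did not enter the contrast; their libraries were in the fit and so shared in its estimate of the spread. Ttad was set against Tterm by sign first, called or not. Of the 1627 peaks higher in OTC Ttad, 88.1% were also higher with Zfp219 (52.0% of all peaks) and 84.2% with Dusp5 (50.3%). With Zfp219, 185 of them were called higher (11.4%, against 0.633% of all peaks) and 0 lower. With Dusp5, 523 were called higher (32.1%, against 3.38%) and 11 lower. Of the 2294 lower peaks, 362 were called lower with Zfp219 (15.8%, against 1.12%) and 0 higher, and 831 with Dusp5 (36.2%, against 3.96%) and 4 higher. The median differences were smaller than in OTC, at 0.32 and 0.45 for the higher set and -0.34 and -0.42 for the lower set, against 0.91 and -0.80 in OTC, where the peaks were chosen. Without 1 of the 4 Zfp219 libraries the calls over all peaks fell from 942 to between 247 and 320, and without Dusp5 Tterm 2 from 3955 to 1557. The Havcr2 promoter peak was lower in Ttad with Zfp219 (fell by 0.43, limma adjusted p = 0.00068) and with Dusp5 (fell by 0.59, limma adjusted p = 1.95e-07). The Tcf7 gene-body peak was higher with both, by 1.49 (limma adjusted p = 2.32e-07) and 1.25 (limma adjusted p = 2.73e-06).

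Tprog was compared with Tterm in young OTC hosts, a comparison with no library in common. There 7512 peaks were called higher in Tprog (13.9%) and 6767 called lower (12.6%). Of the 1627 peaks higher in aged Ttad, 1182 were called higher in young Tprog (72.6%) and 7 called lower. By sign, called or not, 93.6% were higher (50.6% of all peaks). Of the 2294 lower peaks, 1414 were called lower in young Tprog (61.6%) and 33 called higher. By sign, 89.8% of these were lower (49.4% of all peaks). Over the 3921 peaks the 2 sets of log2 differences had a Pearson r of 0.777, and 0.466 over all peaks; for Zfp219 and Dusp5 the values were 0.727 and 0.679 over the called peaks and 0.342 and 0.302 over all. These r are across peaks, which are not independent replicates. At the Id3 peak the young difference was 3.08 and the aged Ttad difference 1.05, at the Slamf6 peak 2.58 and 1.24, and at the Ccl3 peak -0.45 and -0.65.

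**Figure D5:**
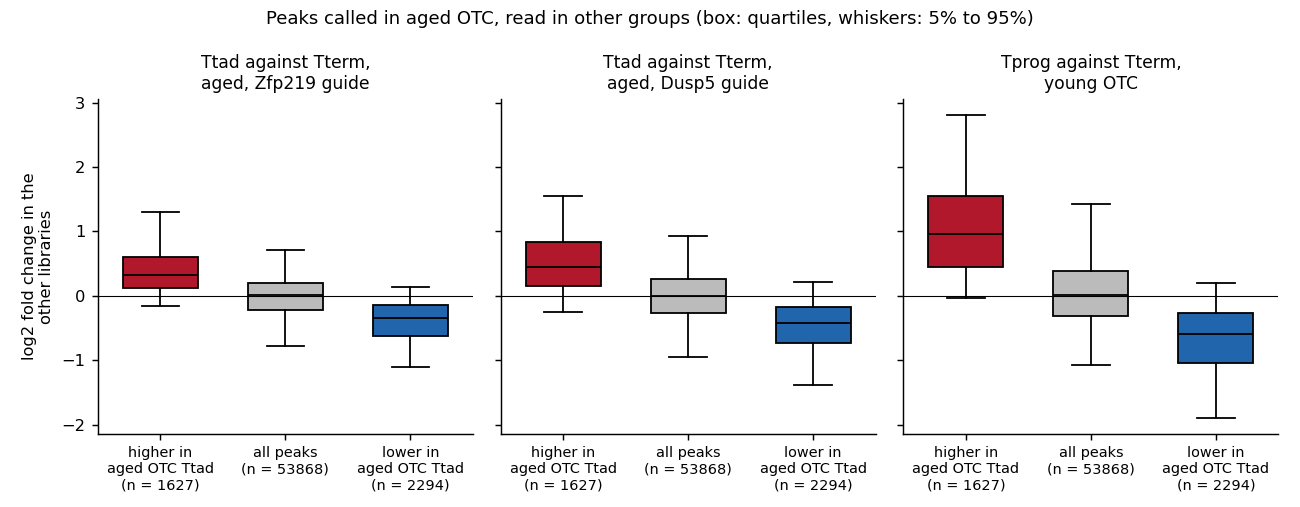
Log2 fold changes (y axis) of the 1627 peaks higher and the 2294 lower in aged OTC Ttad, and of all 53868 peaks, in the Zfp219 and Dusp5 libraries (Ttad against Tterm) and in young OTC libraries (Tprog against Tterm); boxes are quartiles and whiskers 5% to 95%. Boxes of the higher set lie above 0 and those of the lower set below 0 in each panel, with medians of 0.32, 0.45 and 0.96 and of -0.34, -0.42 and -0.58.

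Among the 33 peaks lower in aged Ttad and called higher in young Tprog, 3 are given, chosen after their values were seen. These 3 stayed called in every fit that left out 1 library. The Ppp2ca peak, in the gene of a phosphatase catalytic subunit, held 38.6 and 34.5 in Ttad, 111 and 113 in Tterm, 137 and 65.7 in Tprog and 90.3 and 94.1 in Ttran. Both Ttad libraries were below all 6 others, and the peak fell by 1.59 against Tterm (SE 0.30, limma adjusted p = 0.000118). The Ubr3 peak, in a ubiquitin ligase gene, held 33.5 and 34.5 in Ttad against 76.3 and 105 in Tterm (fell by 1.37, limma adjusted p = 6.35e-05), and the Synrg peak 93.9 and 108 against 193 and 181 (fell by 0.88, limma adjusted p = 0.000174). With Zfp219 and Dusp5 the differences of the Ppp2ca peak were -0.30 and -0.23 and were not called (limma adjusted p = 0.795 and 0.746), and in young hosts Tprog exceeded Tterm by 0.80 (limma adjusted p = 0.0227).

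Whether a guide altered the Ttad against Tterm difference was tested by the interaction in the same limma fit. The difference was not the same as in OTC for 10 peaks with Zfp219 (0.0186% of all peaks) and for 116 with Dusp5 (0.215%). Leaving out 1 library gave 3 (without Zfp219 Tterm 1) to 95 (without OTC Ttad 2) peaks for Zfp219, and 36 (without Dusp5 Tterm 2) to 443 (without Dusp5 Tterm 1) for Dusp5. Dusp5 Tterm 2 was the shallowest of the 48 libraries, with 5638413 reads in peaks, against 13535015 in Dusp5 Tterm 1. How far the Dusp5 interactions depend on that depth was not tested. The peak near Fyn, the gene of a receptor-proximal kinase, held means of 119 in OTC Ttad and 56.3 in OTC Tterm (n = 2 each), and of 77.7 and 134 with Dusp5. The difference thus went from 1.14 to -0.76, and the interaction was -1.90 (limma adjusted p = 0.000654), lost without OTC Tterm 1 (adjusted p = 0.0757).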

How the data were processed

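The deposited table gives a normalized signal for each of 53868 peaks in 48 libraries. Per the submitters' processing notes, mm10, Bowtie2 2.2.9, Picard 2.8.0, SAMtools 1.3.1, MACS2 2.1.1 and DESeq2 1.28.1 were named; their settings, the treatment of duplicates and any shift of insertion sites are not given in the sources used here. The deposited signal values are whole reads divided by a median-of-ratios factor of each library, per the values: 100% came out whole within 0.01 of a read, so the recovered read counts give the depth behind them. Sequenced reads are not independent molecules.

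All steps from there were made for this account. The main test was limma 3.58.1 (R 4.3.3; lmFit, eBayes with trend) on log2(value + 1), with all 48 libraries and a mean for each of 21 groups, 27 residual degrees of freedom, and Benjamini-Hochberg adjustment over all peaks; the threshold for a call was an adjusted p of 0.05, two-sided. Fold changes on that scale understate changes of weak peaks. Since the values are not counts as deposited, edgeR 4.0.16 on the recovered reads is an alternative; it called 3841 peaks. A peak belongs to the protein-coding gene body it overlaps, or the nearest within 100 kb (51109 peaks, 34590 in a body), from the RefSeq GRCm38.p6 gene table. The column names carry running sample numbers that follow the groups, and no other batch is named. Replicate numbers were not treated as pairs. The difference between libraries 1 and 2 of Ttad and that of Tterm had a correlation of -0.0058 across peaks. With 2 libraries per state, this cannot show whether libraries of the same number came from the same mice.

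Named peaks followed a rule: the 12 largest called folds per direction with no overlap and at least 50 normalized reads in the higher group, the 10 genes with most called peaks per direction, the strongest and all called peaks of the listed genes, and the 5 largest interactions per direction. Exceptions are marked as chosen after their values were seen. The comparison, the lists and the rules were chosen with earlier results of these data known. Motif letters in the central bases of peaks were planned, but no genome was used here, so letters were counted in RefSeq promoter windows instead. The fits were tested on simulated data. The settings varied were the pseudocount (8), the peaks fitted (without the weakest 25%), scaling by total reads, quantile normalization, the compared groups alone, edgeR, a replicate block and leaving out each library; thinning to equal depth and removal of scaffold and Y peaks were added after seeing the data. Some items that the naming rule selects are not reported here.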

Additional observations from a re-analysis of the deposited data

Results flagged for a closer look

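The Ttad against Tterm difference differed between guides, by the limma interaction test, at 10 peaks for Zfp219 against OTC and at 116 for Dusp5 against OTC; values are the difference in log2 fold change, guide minus OTC. For Zfp219 the largest were Snx29 (1.52), Sec24c (1.5), Zfp652 (1.42) and Eif2ak4 (1.28), and the only negative one that met the conditions for naming was Zfp825 (-0.82). Zfp652, a zinc-finger gene, had group means of 77.8 normalized reads in OTC Ttad and 283 in OTC Tterm, and of 261 and 353 with the Zfp219 guide (n = 2 each, limma adjusted p = 0.00119). The Zfp825 peak had means of 882 and 493 in OTC and of 509 and 504 with Zfp219 (limma adjusted p = 0.00278). With Dusp5 its means were 1375 and 1967.

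For Dusp5 the largest differences were Fem1c (3.47), Kdm5c (3.28), Dse (3.17), Anapc13 (2.37) and Ifih1 (2.32), and in the other direction Nlrp1b (-2.91), Taf3 (-2.10), Trak2 (-2.00), Arap3 (-1.92) and Fyn (-1.90). The Fem1c peak, in reach of a gene for a ubiquitin ligase receptor, had means of 17.1 in OTC Ttad and 64.6 in OTC Tterm and of 42.4 and 14.2 with Dusp5 (limma adjusted p = 0.00595). Of these 15 peaks 0 kept the call in every fit that left out 1 of the 8 libraries concerned; Zfp825 lost it without Zfp219 Tterm 1 (adjusted p = 0.0679) and Fem1c without OTC Tterm 2 (adjusted p = 0.0572).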

How the results depend on the processing

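Counts of calls depended on the libraries used and on which groups shared the fit. With the compared groups alone, the 3921 calls for aged OTC became 2844, and 2597 peaks were called in both fits. Fitted in the same way, young Tprog against Tterm went from 14279 to 17977 calls. Aged Ttad against Tprog went from 3531 to 2607. Leaving out 1 library gave 1908 to 2813 peaks for Ttad against Tterm in aged OTC (773 to 960 higher, 1095 to 1853 lower), against 2844 to 4398 under the other alternatives, which include the fit of both groups alone, edgeR and thinning. For Zfp219 the 942 calls became 2791 with its groups alone, 1422 with edgeR and 247 to 320 with 1 library left out. For Dusp5 the 3955 calls became 1310 with its groups alone and 1557 to 4115 with 1 library left out. The 10 Zfp219 interactions became 6 with those groups alone and 3 to 95 with 1 library left out, and the 116 Dusp5 interactions 28, 36 to 443, and 51 with edgeR. Young Tprog against Tterm gave 9518 to 12093 in place of 14279, and aged Ttad against Tprog 1445 to 2715 in place of 3531, with 1 library left out; scaling by total reads turned the split of the latter from 2058 higher and 1473 lower to 1391 and 1807. With fewer libraries in the fit some of these counts fell and others rose, and the cause was not tested. A replicate block gave 3839 calls for aged OTC, 891 and 3862 for Zfp219 and Dusp5, and 7 and 95 interactions. Whether libraries of the same number share mice is not given (correlations of -0.0067 to 0.0040 over 6 pairs of states). Of 258 named peaks called in aged OTC, 77 stayed called in each fit that left out 1 library and 194 in every other alternative. A single named peak reversed: the Stat4 peak went from -2.35 to 0.12 without Ttad 1, with a range of -4.81 to 0.12 over the 4 fits. Motif shares of the central bases of peaks and their whole-peak alternative were not run, since no genome was used here.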

Other observations

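The Thy1 peak at chromosome 9, 44046603 to 44047436, differed widely between groups of the series. Thy1 encodes the CD90 surface protein of T cells. In aged OTC hosts the 2 libraries held 135 and 122 normalized reads in Tprog, 2944 and 3051 in Ttran, 4884 and 4611 in Ttad and 959 and 829 in Tterm. With Zfp219 the means were 617 in Ttad and 130 in Tterm, and with Dusp5 190 and 123 (n = 2 each). Young OTC libraries had means of 364 in Tprog and 263 in Tterm. Group means ran from 123 to 4748. What the reads at this site come from was not tested.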
